A study of Mus musculus with 12 samples.

Results

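Pre-mRNA splicing factors were examined on 12 arrays of mouse blastocysts, the stage at which the inner cell mass is first set off from the trophectoderm around it. The members were the probe sets annotated to exactly 1 gene whose symbol starts with Srsf, Sf3a, Sf3b or Prpf and a digit, with Snrp (other than Snrpn), with Hnrnp or with U2af, or is Srrm1, Srrm2, Tra2a, Tra2b, Sart1, Sart3 or Rbm5. They came to 203 probe sets of 68 genes, out of 45037 probe sets and 18193 genes. Of these, 184 probe sets of 67 genes had a mean signal of at least 100 and were tested, and the rest, which include every probe set of Srsf12, were dimmer and were not tested. Per the labels, 4 arrays carried RNA of blastocysts cultured in Ca2+ free medium (called Ca-free), 4 of blastocysts given 20 Ca2+ pulses (called 20 pulses) and 4 of control blastocysts, which are called normal. The title of the study concerns the Ca2+ oscillations of the fertilised egg, so the comparisons ask how blastocysts differ after the Ca2+ signal was changed. Neither the form or timing of the pulses, nor the length of the culture, nor the mouse strain or the number of embryos is stated in the sources used here. The labels do not say that replicates came from separate collections, so p-values cover only the spread between these samples, and their precision is limited by how few arrays there are.

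Splicing removes introns from pre-mRNA and joins exons, and it is carried out by the spliceosome, which is built from small nuclear ribonucleoproteins (snRNPs) and many further proteins. SR proteins bind exons and help to recruit the spliceosome, whereas hnRNPs coat pre-mRNA and often act against the use of nearby splice sites. U2af1 and U2af2 bind the 3' splice site, the SF3A and SF3B proteins hold the U2 snRNP at the branch point, Sm proteins form the ring of the snRNPs, and Prp proteins serve the tri-snRNP and the catalytic core. Splicing factors are abundant in early embryos, which depend on transcription of their own genome from cleavage onwards.

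The promoters below are examples of genes whose every tested probe set was called in the same direction in Ca-free medium against control: Prpf19, a ubiquitin ligase of the catalytic spliceosome, Sf3a3, a subunit of SF3A, and the SR proteins Srsf5 and Srsf9 were called higher, and U2af1l4, a paralogue of U2af1, was called lower. Srsf5, Srsf9 and U2af1l4 had only 1 tested probe set each. Each sequence is RefSeq's (GRCm38.p6), on the strand of the gene, from 250 bases before the start of the gene to 50 after it. Prpf19 lies at chr19:10894981-10895280, Sf3a3 at chr4:124714611-124714910, Srsf5 at chr12:80945249-80945548, Srsf9 at chr5:115326927-115327226 and U2af1l4 at chr7:30563090-30563389, all on the + strand. Capitals mark matches to any of 4 motifs, searched on both strands: TATAAA (the TATA box), CCAAT (the CCAAT box), CCGGAAG (a core of ETS factor sites, which reads CTTCCGG on the other strand) and TGACGTCA (the cAMP response element). No motif of the 4 contains another.
Prpf19: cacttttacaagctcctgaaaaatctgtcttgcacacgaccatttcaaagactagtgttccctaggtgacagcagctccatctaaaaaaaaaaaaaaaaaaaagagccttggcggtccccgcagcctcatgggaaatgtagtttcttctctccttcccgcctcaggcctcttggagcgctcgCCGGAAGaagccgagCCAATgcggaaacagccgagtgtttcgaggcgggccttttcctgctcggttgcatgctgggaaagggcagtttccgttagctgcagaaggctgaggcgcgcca
Sf3a3: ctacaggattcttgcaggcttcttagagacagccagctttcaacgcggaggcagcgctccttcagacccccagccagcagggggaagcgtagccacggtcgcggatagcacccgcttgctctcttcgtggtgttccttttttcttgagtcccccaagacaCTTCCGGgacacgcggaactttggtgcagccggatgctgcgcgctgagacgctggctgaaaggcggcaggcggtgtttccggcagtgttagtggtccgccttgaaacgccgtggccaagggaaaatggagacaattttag
Srsf5: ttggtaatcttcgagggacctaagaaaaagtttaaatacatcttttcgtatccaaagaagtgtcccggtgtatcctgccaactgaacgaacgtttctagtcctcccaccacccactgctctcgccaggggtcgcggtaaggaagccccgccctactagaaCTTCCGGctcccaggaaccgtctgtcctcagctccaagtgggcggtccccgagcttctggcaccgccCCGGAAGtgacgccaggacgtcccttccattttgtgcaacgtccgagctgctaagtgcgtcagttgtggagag
Srsf9: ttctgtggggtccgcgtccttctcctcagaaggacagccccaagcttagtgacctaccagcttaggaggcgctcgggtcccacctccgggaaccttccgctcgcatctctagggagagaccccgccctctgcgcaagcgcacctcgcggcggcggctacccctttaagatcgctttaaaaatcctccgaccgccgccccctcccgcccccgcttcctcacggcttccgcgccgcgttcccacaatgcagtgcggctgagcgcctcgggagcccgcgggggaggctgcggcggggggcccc
U2af1l4: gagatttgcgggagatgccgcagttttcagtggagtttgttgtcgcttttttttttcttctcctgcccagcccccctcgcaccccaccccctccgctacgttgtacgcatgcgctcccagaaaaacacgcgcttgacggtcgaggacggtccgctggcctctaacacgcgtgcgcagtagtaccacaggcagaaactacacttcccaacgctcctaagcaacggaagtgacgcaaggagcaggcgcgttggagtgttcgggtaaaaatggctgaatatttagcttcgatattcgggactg
Prpf19 held 1 CCAAT and 1 CCGGAAG, Sf3a3 held 1 CCGGAAG and Srsf5 held 2, while none of the 4 motifs was in the windows of Srsf9 and U2af1l4. Of the 8 genes with all probe sets higher 7 had a promoter in the table, and CCGGAAG stood in 4 of them (Hnrnpd beside the 3 above, but not Hnrnpa0, Prpf8 or Srsf9). Of the 2 genes with all probe sets lower 1 had a promoter, without it. Of the 68 genes, 60 had a promoter in the table. CCGGAAG stood in 31.7% of their promoters (19 of 60) and in 9.12% of all 27025 promoters, CCAAT in 30 of 60 and in 37.9% of all, TATAAA in 8.33% of the members' promoters and 14.2% of all, and TGACGTCA in 3.33% and 1.88%. The median GC content was 60.0% in the promoters of the members and 52.7% in all, and the median number of CpG sites 25 and 7, so the windows also differ in base composition. A match describes letters and is not a measured site.

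Several array-wide readings moved with the groups, and their part in the results below was not tested. The 3' to 5' signal ratio of Gapdh ran from 2.89 to 5.05 on the Ca-free arrays, from 5.70 to 7.58 on the 20-pulse arrays and from 5.76 to 8.90 on the control arrays. Signal of 18S rRNA at its 5' probe set was 4003 to 5780, 2653 to 3688 and 878.4 to 2559 in the same order, and the geometric mean of the hybridization controls 1800 to 1844, 1307 to 1553 and 1549 to 1634. Controls 3 and 4 stood apart from controls 1 and 2, with Actb 3' to 5' ratios of 2.69 and 2.64 against 1.59 and 1.67. The 9 blastocyst markers, Pou5f1, Cdx2 and Krt8 among them, were all measured, with a summed signal of 48910 to 51130 on the Ca-free arrays, 49350 to 50220 on the 20-pulse arrays and 49510 to 51700 on the control arrays, and 2 of them were called higher and 2 lower in Ca-free medium against control. The 6 oocyte markers summed to 1464 to 2125, 1415 to 1850 and 1756 to 2155, with 2 lower against control, and the 3 blood markers to 308.1 to 351.6, 448.6 to 635.9 and 340.8 to 584, with both tested ones lower in Ca-free medium against 20 pulses. None of the 4 cumulus cell markers on the arrays reached the minimum signal, and the 6 oviduct and uterine markers summed to 607.6 to 865.3, 1021 to 1236 and 1202 to 1389, with 3 called lower in Ca-free medium against control.

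On the scale of the deposited arrays, more splicing factor probe sets were called higher than lower in blastocysts from Ca-free medium against control blastocysts. With scaling to the hybridization controls this balance was reversed, at 19 higher and 64 lower. Of the 184 probe sets, 55 were called higher (29.9%), 24 lower (13.0%) and 105 neither, by limma at an adjusted p under 0.05. Among all 27808 tested probe sets, 10.6% were called higher and 29.7% lower. These shares are not matched for signal, and from a mean signal of 3000 upwards 40.3% of the members were higher, beside 36.0% of all. The median log2 change was 0.072 over the members and -0.18 over all. SR proteins had 17 of 48 probe sets higher and 5 lower, hnRNPs 15 of 54 and 3, Sm and snRNP proteins 5 of 15 and 1, and Prp proteins 7 of 27 and 4. The SF3A, SF3B and U2AF proteins had 8 of 32 probe sets higher and 9 lower. All of these class counts move with the scaling described below, for the SF3A, SF3B and U2AF proteins to 7 and 4 with quantile normalization, 19 and 0 with equal medians and 5 and 14 with the hybridization controls. In the same order the SR proteins had 14 and 8, 34 and 1, and 7 and 17, the hnRNPs 6 and 5, 44 and 1, and 3 and 16, the Sm and snRNP proteins 2 and 1, 12 and 0, and 2 and 5, and the Prp proteins 2 and 2, 18 and 0, and 0 and 8. With each gene counted once, by whichever of its tested probe sets was brightest, 16 of 67 genes were higher and 8 lower, against 12.3% and 28.8% of all 13599 genes. In such bulk samples fewer cells of a type and less RNA per cell cannot be told apart.

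**Figure D1:**
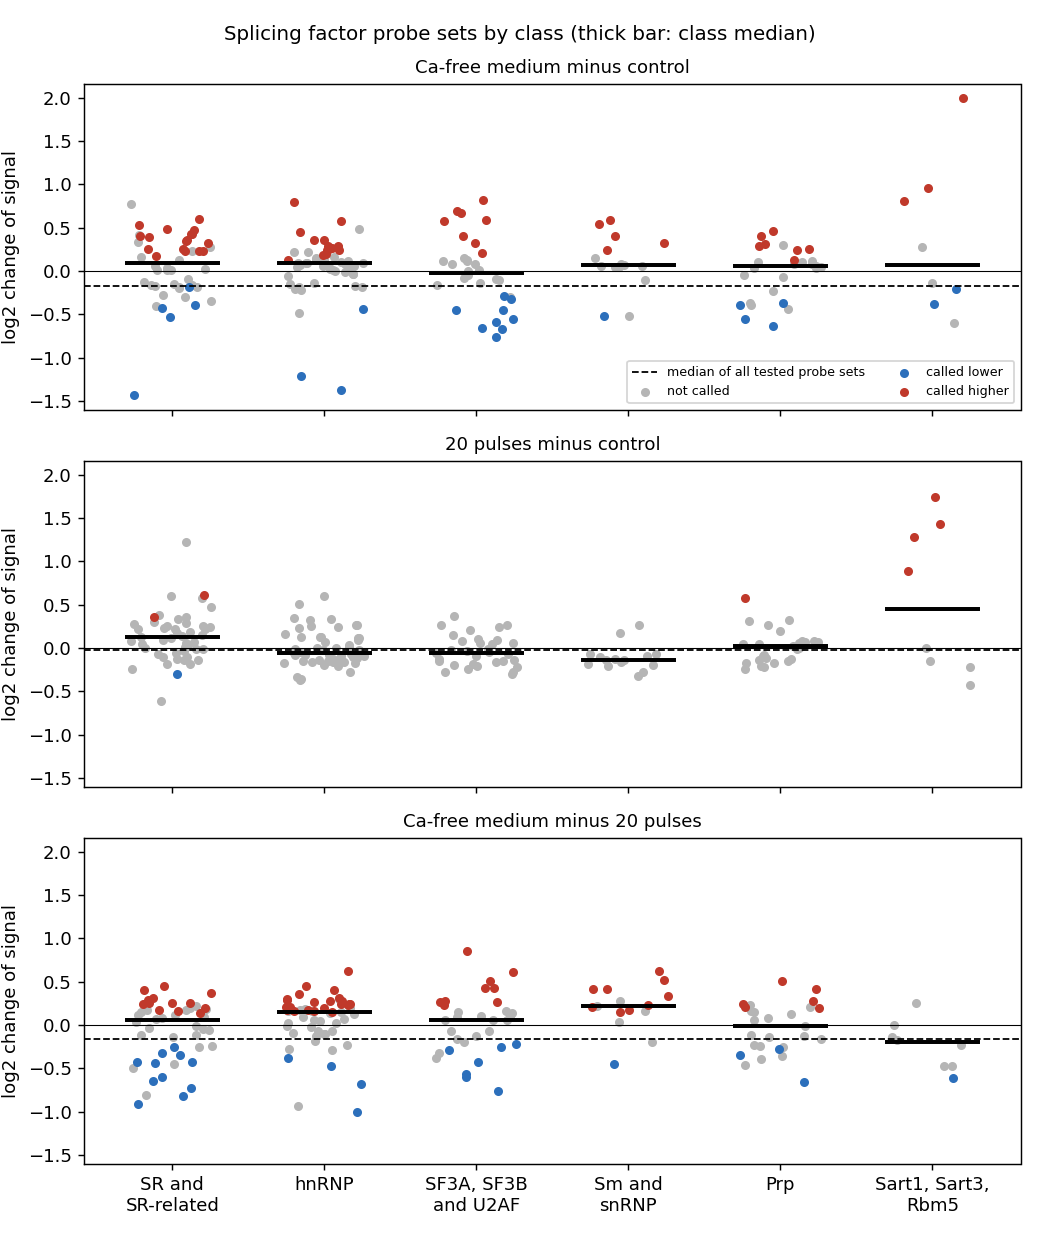
Each point is 1 tested member probe set, with its log2 change of signal on the vertical axis in Ca-free medium minus control (top), 20 pulses minus control (middle) and Ca-free medium minus 20 pulses (bottom), by class. Red points were called higher and blue points lower, thick bars are class medians and the dashed line is the median of all tested probe sets. In Ca-free medium 55 probe sets were called higher than control and 24 lower, and after 20 pulses 7 and 1, counts that other scalings of the arrays move and that scaling to the hybridization controls turns to 19 and 64 for Ca-free medium.

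In Ca-free medium against control the share of calls followed the signal, on all probe sets and on the members alike. Between 100 and 300, 2 of 30 member probe sets were called higher in Ca-free medium (6.67%) and 9 lower, beside 2.39% and 39.0% of all tested probe sets in that range. Between 300 and 1000 it was 18.9% and 16.2% of 37 members, beside 8.71% and 31.0%. Between 1000 and 3000 it was 37.8% and 11.1% of 45 members, beside 26.2% and 11.3%, and from 3000 upwards 40.3% and 5.56% of 72 members, beside 36.0% and 4.14%. The median mean signal was 1867 over the tested members and 322.5 over all tested probe sets. Within each range the shares of the members thus lay nearer to those of all probe sets than they did over all signals together.

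**Figure D2:**
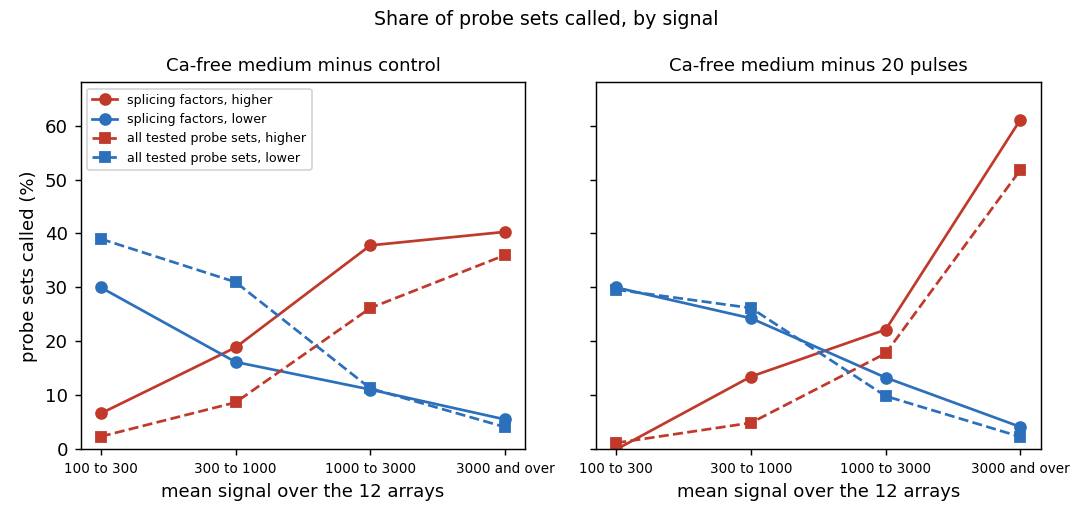
Percentage of probe sets called higher (red) or lower (blue) on the vertical axis, against ranges of mean signal over the 12 arrays, for the tested splicing factors (circles, solid lines) and all tested probe sets (squares, dashed lines). In Ca-free medium minus control (left) and Ca-free medium minus 20 pulses (right) higher calls grow and lower calls shrink with signal, and from 3000 upwards 40.3% of the members were called higher in Ca-free medium than in control, beside 36.0% of all.

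The balance of calls depended on how the arrays were put on one scale. The deposited arrays share a trimmed mean. With quantile normalization 35 member probe sets were higher and 22 lower in Ca-free medium against control, with equal medians 132 and 2, and with scaling to the hybridization controls 19 and 64. The median over all tested probe sets was -0.18, -0.019, 0.20 and -0.36 under these 4 scalings in turn, and the median over the members 0.072, 0.027, 0.48 and -0.13. The share of all tested probe sets called under each scaling other than the deposited one is not given here. Counts of members, classes or lists called under 1 such scaling therefore do not show how far they differ from the whole array. Called higher under all 4 scalings were 19 member probe sets of 17 genes (10.3% of the members, beside 2.74% of all tested probe sets), and called lower were 2, of Hnrnpk and Srsf2 (1.09%, beside 4.45%). The 17 genes were Hnrnpab, Hnrnpll, Hnrnpr, Rbm5, Sart3, Sf3b1, Sf3b2, Sf3b5, Sf3b6, Snrpb2, Snrpd3, Srrm1, Srsf10, Srsf3, Srsf5, Srsf6 and Srsf9. Of these, Rbm5, Sart3, Sf3b2, Sf3b5, Sf3b6, Snrpd3 and Srrm1 also had a probe set called lower on the deposited scale, and the others had none. In Sart3 (-0.37) and Rbm5 (-0.21) the brightest probe set was the lower one. Sart3 is listed through 1417548_at, whose control mean of 69.38 lies below the minimum signal.

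Among the SR proteins, Srsf5, which promotes exon inclusion, and Srsf9 each had 1 tested probe set, called higher. Srsf5 (1423130_a_at) read 3547, 4459, 4072 and 4111 in Ca-free medium, against 2945, 3092, 2908 and 2609 in control. Every Ca-free array lay above every control array, and the log2 change was 0.48 ± 0.080 (SE; adjusted p = 0.000747). Srsf9 (1417727_at) read 4262, 3709, 3812 and 3856 in Ca-free medium, against 3057, 2865, 2919 and 2955 in control (log2 change 0.40 ± 0.059, adjusted p = 0.000411). Its groups did not overlap either, and both calls held with every array left out in turn and under all 4 scalings. Srsf3, the smallest SR protein, had 5 of 6 probe sets called higher, with changes of 0.23 to 0.60. Its probe set 1416151_at read 2437, 1650, 1806 and 2494 in Ca-free medium, against 1343, 1262, 1392 and 1413 in control (log2 change 0.60 ± 0.12, adjusted p = 0.00168). Here the 4 control arrays lay close together, and Ca-free arrays 1 and 4 lay above Ca-free arrays 2 and 3.

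Srsf1, the founding member of the family, had 4 of 6 probe sets called higher, by 0.17 to 0.32, while its brightest one did not pass (log2 change 0.040, negative with quantile normalization and the hybridization controls). Srsf6 and Srsf10 each had 2 of 4 higher. Srrm2, a scaffold of nuclear speckles, was higher in its brightest probe set (log2 change 0.34, adjusted p = 0.00111), a call that ended with scaling to the hybridization controls. Tra2a, an SR-like activator of exons, was lower in its brightest probe set (log2 change -0.19, adjusted p = 0.0277), a call that ended with equal medians. The other 3 tested probe sets of Tra2a were not called, with changes of -0.40 to 0.77. The brightest of Tra2b did not pass (0.023, negative with quantile normalization and the hybridization controls). The largest decrease by the rule for named members was in Srsf2, which binds exonic enhancers. Its probe set 1427816_at read 192.5, 273, 364.4 and 213.2 in Ca-free medium, against 735.3, 656.1, 850.8 and 715.7 in control (log2 change -1.43 ± 0.15, adjusted p = 0.000109). The groups did not overlap, which that rule required. The call held under all 4 scalings, but the other 3 probe sets of Srsf2 were not called, with changes of -0.16 to 0.27.

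Among the hnRNPs, which shape splice site choice, 4 of 19 genes were higher and 1 lower by their brightest probe set, beside 12.3% and 28.8% of all genes. Both probe sets of Hnrnpll, known from T cells as a regulator of alternative splicing, were higher, a gene picked here after its values were seen. The first, 1425255_s_at, read 4213, 4332, 4142 and 4244 in Ca-free medium, against 2900, 3069, 3235 and 3113 in control (log2 change 0.46 ± 0.053, adjusted p = 0.000163), and the second, 1427144_at, changed by 0.36 (adjusted p = 0.002). The spread within each group was small beside the gap between them. Hnrnpr had 1 of 4 probe sets called: 1452030_a_at read 935.9, 982.7, 1072 and 926.5 in Ca-free medium, against 812.7, 721, 408.7 and 377.5 in control (log2 change 0.79 ± 0.19, adjusted p = 0.00484). Controls 3 and 4 were far below controls 1 and 2, and the change was 1.25 against controls 3 and 4 only and 0.34 against controls 1 and 2 only, with the call kept in both. Hnrnpu, an RNA and chromatin scaffold, was higher in its brightest probe set (0.24, adjusted p = 0.00996), and this call ended against controls 1 and 2 only, with Ca-free arrays 1 and 4 only and under 2 of the scalings. Hnrnpa1, a classic repressor of exons, was lower in its brightest probe set (-0.44, adjusted p = 0.0499), with overlapping groups. Its call ended without Ca-free 1, Ca-free 4 or any of controls 1, 2 and 4. It also ended with equal medians, at a change of -0.034, and with Ca-free arrays 2 and 3 only, at -0.070. The brightest probe sets of Hnrnpa2b1 (0.063) and Hnrnpk (0.032) did not pass, and both changes turn negative with quantile normalization and with scaling to the hybridization controls.

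The SF3B complex, which contacts the branch point, gave large calls both ways. Sf3b1, its scaffold, had 2 of 4 probe sets higher. Its 1418562_at read 3805, 4257, 3865 and 3936 in Ca-free medium, against 2843, 3032, 2246 and 1846 in control (log2 change 0.69 ± 0.12, adjusted p = 0.00103), and its brightest probe set did not pass (0.012, negative with quantile normalization and the hybridization controls). Sf3b2 (1429362_a_at) read 2045, 1901, 1704 and 1956 in Ca-free medium, against 1235, 1204, 1219 and 1066 in control (log2 change 0.67 ± 0.076, adjusted p = 0.000138). In both probe sets the lowest Ca-free array lay above the highest control array, a condition of their choice. Both calls held under every scaling and left-out array. Sf3b6, the subunit beside the branch adenosine, had 2 of 4 probe sets higher, 1417055_at by 0.82 (adjusted p = 0.0038) and 1436681_x_at by 0.58 (adjusted p = 0.00134), and the first call ended against controls 3 and 4 only, at a change of 0.67. Sf3b5, a small subunit, was higher in 1451185_at (0.59, adjusted p = 0.000545).

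Sf3b4, which binds pre-mRNA upstream of the branch point, was lower in both of its probe sets. Its 1436784_x_at read 1147, 1111, 978.9 and 1787 in Ca-free medium, against 2046, 2242, 2153 and 1952 in control (log2 change -0.76 ± 0.15, adjusted p = 0.00197), and 1424619_at changed by -0.28 (adjusted p = 0.00149). Ca-free array 4 lay nearest to the controls in the first, and both calls ended with equal medians, the first at a change of -0.36. U2af1l4, another gene picked after its values were seen, has 1 tested probe set. It read 1160, 1183, 1174 and 1124 in Ca-free medium, against 1524, 1436, 1680 and 1733 in control (log2 change -0.44 ± 0.086, adjusted p = 0.00166), so its 4 Ca-free arrays were tightly grouped below all controls. This call too ended with equal medians, under which 0 of the 32 SF3A, SF3B and U2AF probe sets were lower. U2af1 (0.12) and U2af2 (-0.14) did not pass, and both turn sign, U2af1 with quantile normalization and the hybridization controls and U2af2 with equal medians. Of the SF3A subunits, Sf3a3 was higher in both probe sets (0.33 and 0.41; adjusted p = 0.00194 and 0.00947), Sf3a1 was lower in 2 of 3 with 1446687_at at -0.65 (adjusted p = 0.00131), and Sf3a2 was lower in 1 of 2 (1450576_a_at, -0.58, adjusted p = 0.0106). The named calls of Sf3a1 and Sf3a2 ended with quantile normalization and with equal medians, and that of Sf3a2 also with Ca-free arrays 2 and 3 only and against controls 3 and 4 only. The brightest probe set of Sf3a1 did not pass (-0.10), a change that turns positive with equal medians.

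Sm and snRNP proteins had no brightest probe set called lower, and 2 of 8 genes were higher by it, Snrpd3 and Snrpb. Of all genes 28.8% were lower and 12.3% higher by it. Snrpd3, a subunit of the Sm ring, read 5443, 5505, 4943 and 5894 in 1422884_at in Ca-free medium, against 4434, 4487, 2949 and 2840 in control (log2 change 0.59 ± 0.14, adjusted p = 0.00438). Controls 3 and 4 were again the low ones, and the change was 0.28 against controls 1 and 2 only and 0.90 against controls 3 and 4 only. Snrpb, which shares the ring, rose by 0.24 (1437193_s_at, adjusted p = 0.0286) with overlapping groups, a call that ended under many settings, among them without Ca-free 1, 2 or 4 and without control 1 or 2. Of the Prp proteins, the probe sets of Prpf19 were all called higher, 4 of 4, by 0.13 to 0.46. The brightest of them, 1456531_x_at, changed least (0.13, adjusted p = 0.05 after rounding, and just under the threshold), overlapped between the groups, lost its call with each of Ca-free 1, 2 and 4 and each control left out, and turned to -0.081 with scaling to the hybridization controls. Prpf8, the core of the spliceosome, read 3550, 3458, 3352 and 3616 in Ca-free medium, against 2549, 2593, 2975 and 3148 in control (log2 change 0.31 ± 0.093, adjusted p = 0.0156), and Prpf31, a tri-snRNP protein, changed by 0.41 (adjusted p = 0.02). Prpf8 did not overlap between the groups. Its call ended without control 1, that of Prpf31 without control 1 or Ca-free 4, and both under 2 of the scalings. The tri-snRNP protein Prpf4 (1429724_at, -0.56, adjusted p = 0.00105) and the kinase Prpf4b (1436427_at, -0.63, adjusted p = 0.00554) were lower. Both calls ended with equal medians, and that of Prpf4b also with quantile normalization.

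**Figure D3:**
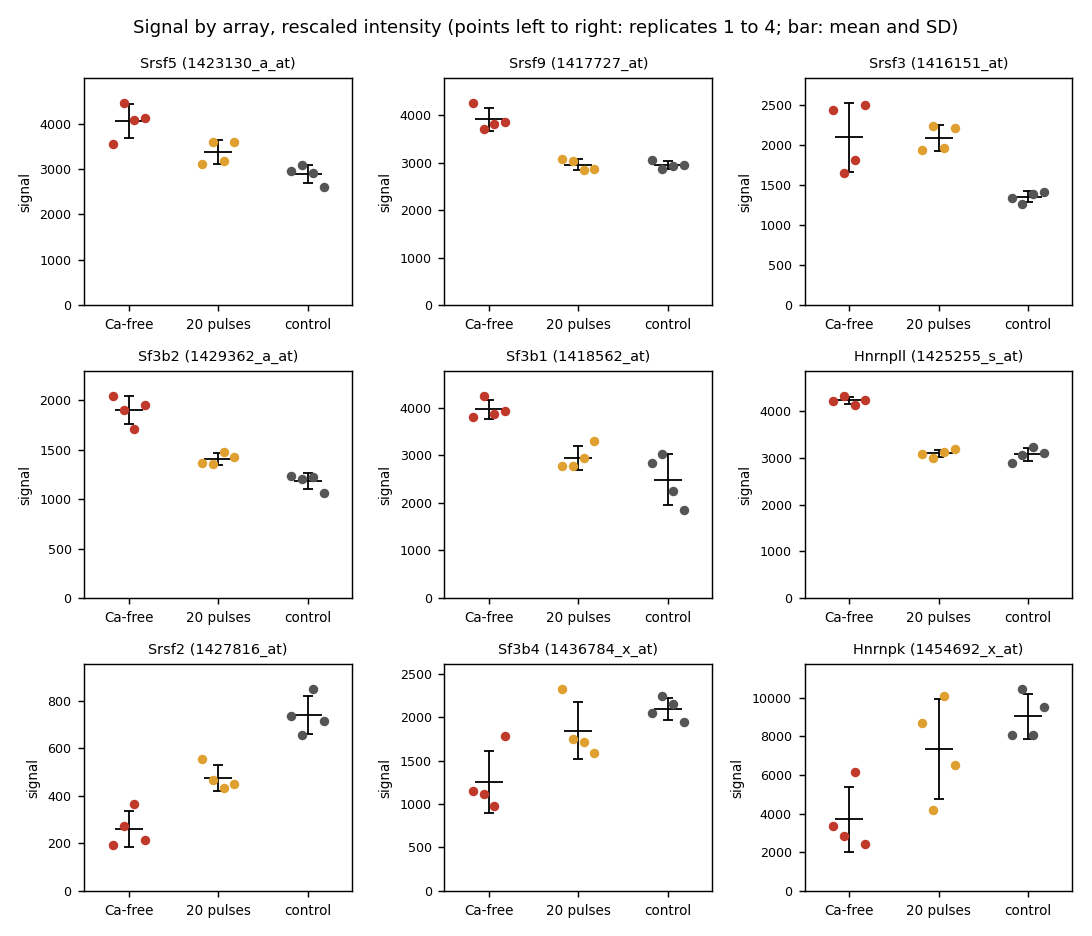
Signal (rescaled intensity, linear axis from 0) of 9 member probe sets on each array, in Ca-free medium, after 20 pulses and in control, with the mean and SD of each group (n = 4). For each gene the probe set shown has the largest change among those whose Ca-free and control arrays do not overlap. The separation of these groups therefore follows from the choice. The Ca-free arrays lie above every control array in the upper 2 rows (Srsf5, Srsf9, Srsf3, Sf3b2, Sf3b1 and Hnrnpll) and below every control array in Srsf2, Sf3b4 and Hnrnpk.

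Probe sets of the same gene differed in many genes, among the members and among all genes. Of the 67 genes, 8 had all tested probe sets higher and 2 all lower, 17 had some higher and 11 some lower, 21 had none called, and 8 had calls in both directions: Hnrnpk, Rbm5, Sart3, Sf3b2, Sf3b5, Sf3b6, Snrpd3 and Srrm1. Only 1 probe set was tested in 5 of the genes all higher and in 1 of those all lower. Among genes with at least 2 tested probe sets, calls in both directions stood in 8 of 48 members (16.7%) and in 417 of 5700 genes in all (7.32%), and among those with at least 3 in 7 of 30 (23.3%) and 302 of 2287 (13.2%). All tested probe sets were higher in 6.25% of the 48 and 2.07% of the 5700, and lower in 2.08% and 7.05%. The widest split but for Sart3 was in Hnrnpk, a poly(C)-binding hnRNP. Its 1454692_x_at read 3370, 2827, 6147 and 2449 in Ca-free medium, against 8059, 10470, 8075 and 9527 in control (log2 change -1.37 ± 0.26, adjusted p = 0.00163), whereas 1423684_at read 4345, 4481, 4516 and 4543, against 3802, 4048, 3636 and 3471 (log2 change 0.26 ± 0.055, adjusted p = 0.00284). The first also ranged from 4181 to 10060 after 20 pulses, so its spread within groups was wide, and it carries a suffix (_x_at) that marks probes shared with other sequences. In Sf3b2, Sf3b5, Sf3b6 and Snrpd3 the lower calls were 1453123_at (-0.55), 1439370_x_at (-0.66), 1435508_x_at (-0.44) and 1449629_s_at (-0.52). In Srrm1, an SR-related coactivator, 1420934_a_at was higher (0.53, adjusted p = 0.000938), and 1450045_at (-0.53, adjusted p = 0.00467) and 1459828_at (-0.39, adjusted p = 0.0145) were lower. All of these lower calls other than that of Hnrnpk ended with equal medians, and that of Sf3b2 also without Ca-free 4 or control 2. Of the tested members 105 probe sets end in _at, 36 in _a_at, 23 in _s_at and 20 in _x_at, and values of the last 2 kinds can hold signal of other genes. Which part of each transcript a probe set reads was not examined.

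**Figure D4:**
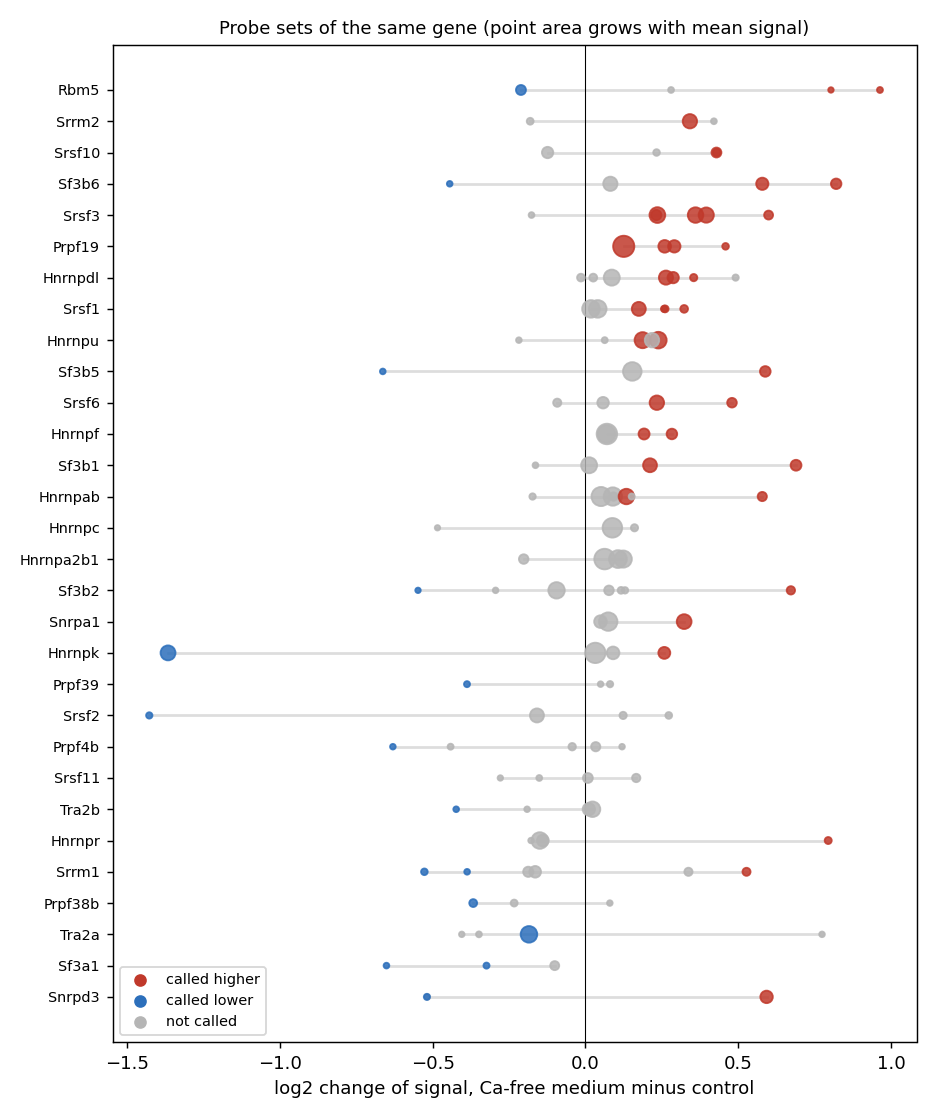
Log2 change of signal in Ca-free medium minus control (horizontal axis) for each tested probe set of the 30 member genes with at least 3 of them, 1 row a gene, ordered by the gene's median, with point area growing with mean signal. Red points were called higher, blue lower and grey neither, and in Hnrnpk the points reach from -1.37 to 0.26.

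Sart3, which helps to reassemble the snRNPs for a new round, was higher by 1 of its 2 tested probe sets. Its 1417548_at read 307.3, 359.1, 456.3 and 288.7 in Ca-free medium and 200.5, 418.5, 322.6 and 245.7 after 20 pulses, against 108.2, 98.28, 39.34 and 31.69 in control. All treated arrays of both kinds lay above all controls, and controls 3 and 4 were lowest. The control mean was 69.38, below the minimum signal of 100, so the probe set was tested only through the treated groups, and its log2 changes rest on a group below that minimum. The log2 change was 1.99 ± 0.26 in Ca-free medium (adjusted p = 0.000253) and 1.74 ± 0.26 after 20 pulses (adjusted p = 0.00745), comparisons that share the control arrays. Without any single array the change stayed between 1.80 and 2.18 in Ca-free medium and between 1.54 and 1.92 after 20 pulses, and both calls held against either pair of controls. The other probe set of Sart3, 1417547_at, went the other way in Ca-free medium, reading 1284, 1052, 1065 and 1349, against 1334, 1503, 1670 and 1676 in control (log2 change -0.37 ± 0.098, adjusted p = 0.00842). Its groups overlapped by a little, its call ended against controls 1 and 2 only and with Ca-free arrays 1 and 4 only, and its change turns positive with equal medians (0.029).

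Rbm5, an RNA-binding protein that acts on alternative exons of apoptosis genes, showed a like division. After 20 pulses 3 of its 4 probe sets were called higher. Its 1452187_at read 578.2, 409.9, 398.4 and 522 after 20 pulses, against 194.9, 232.2, 69.62 and 167.2 in control (log2 change 1.43 ± 0.29, adjusted p = 0.0283), and 1456262_at read 347.7, 438, 444 and 449.4, against 335, 212.2, 147.6 and 185.1 (log2 change 0.89 ± 0.18, adjusted p = 0.0284). The third, 1438069_a_at, read 200.6, 203.8, 204.3 and 190.6, against 124, 125.2, 22.67 and 30.31 (log2 change 1.28 ± 0.29, adjusted p = 0.0447), with controls 3 and 4 near the low end of the scale. The control mean of the third was 75.55, under the minimum signal of 100, so it was tested only through the other groups, and its log2 change rests on a group below that minimum. The groups did not overlap in any of the 3, and all 3 calls held under the 4 scalings. Other alternatives were computed for the first 2 only, whose higher group reached a mean of 200. Their calls ended with controls 1 and 2 only and with single arrays left out, among them 20 pulses 2, 3 and 4 and controls 3 and 4. In Ca-free medium 1452187_at (0.96, adjusted p = 0.0181) and 1438069_a_at (0.80, adjusted p = 0.0398) were higher, and both ended against controls 1 and 2 only, at 0.57 and 0.091. The call of 1452187_at also ended without Ca-free 3, Ca-free 4 or control 3, and that of 1438069_a_at without any 1 of the Ca-free arrays or without control 3 or 4. The brightest, 1452186_at, read 2439, 2447, 2329 and 2377 in Ca-free medium, against 2759, 2925, 2607 and 2842 in control (log2 change -0.21 ± 0.057, adjusted p = 0.0101), a change that turns positive with equal medians (0.20). Sart1, a tri-snRNP protein, did not pass in its brightest probe set in Ca-free medium (-0.13, positive with equal medians).

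**Figure D5:**
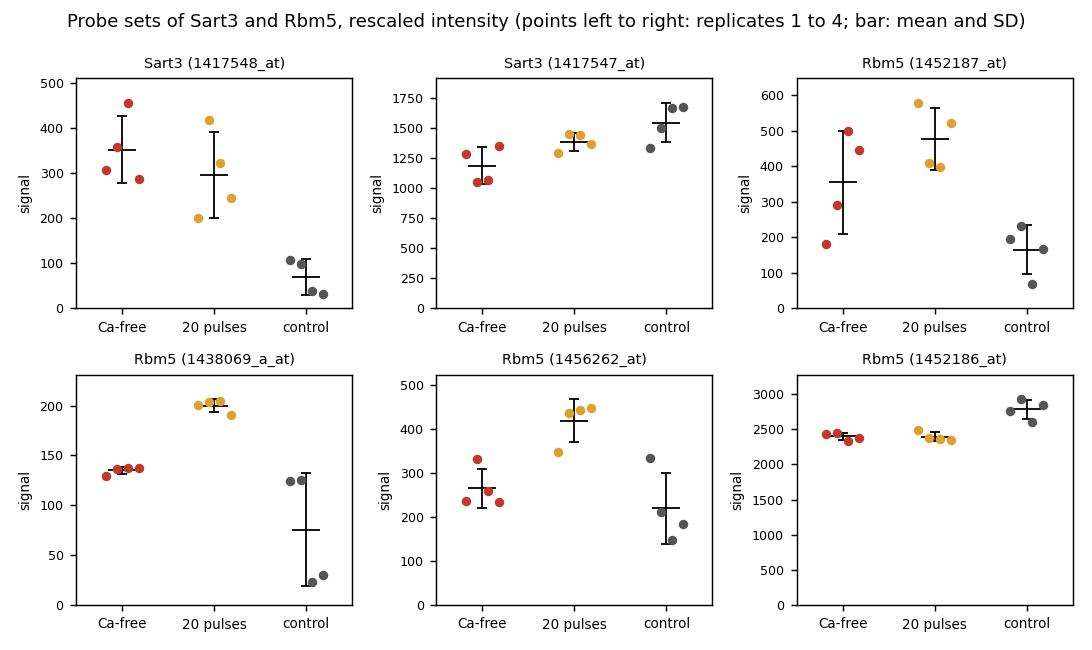
Signal (rescaled intensity, linear axis from 0) of the 2 tested probe sets of Sart3 and the 4 of Rbm5 on each array, in Ca-free medium, after 20 pulses and in control, with the mean and SD of each group (n = 4). In Sart3 1417548_at all 8 treated arrays lie above 200 and all controls below 109, whereas in Sart3 1417547_at and Rbm5 1452186_at the controls average highest.

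Few splicing factors differed from control after 20 pulses, though scaling to the hybridization controls gave 38 member probe sets higher and 0 lower. Of the 184 probe sets 7 were called higher (3.80%) and 1 lower (0.543%), beside 1.10% and 0.374% of all tested probe sets, and at an unadjusted p under 0.05 the counts were 35 and 32 (19.0% and 17.4%), beside 8.15% and 7.64% of all. The median log2 change was -0.012 over the members and -0.027 over all. By the brightest probe set of each gene 0 of 67 genes were higher (5 at an unadjusted p under 0.05) and 1 was lower, beside 0.750% and 0.331% of all genes. Sart3 and Rbm5 gave 4 of the 7. The others were Srsf3 (1416151_at), Srsf1 (1428100_at) and Prpf19 (1460633_at). Srsf3 read 1942, 2242, 1957 and 2216 after 20 pulses, against 1343, 1262, 1392 and 1413 in control (log2 change 0.61 ± 0.12, adjusted p = 0.0204), with no overlap. Srsf1 read 1240, 1161, 1308 and 1349, against 1018, 1071, 888.2 and 945.3 (log2 change 0.36 ± 0.083, adjusted p = 0.0478), and Prpf19 changed by 0.58 (adjusted p = 0.0488) with overlapping groups. The single decrease was in Tra2a, whose 1454725_at read 8174, 7018, 8154 and 7311 after 20 pulses, against 9252, 9749, 9036 and 9745 in control (log2 change -0.30 ± 0.062, adjusted p = 0.0282). These calls were near the threshold. That of Srsf3 ended without 20 pulses 2, 3 or 4 or control 3, that of Srsf1 with each array left out in turn, and that of Tra2a without 20 pulses 2 or 4 or controls 2, 3 or 4. Rescaling also ended calls, that of Srsf1 with quantile normalization and equal medians and that of Prpf19 with equal medians. The call of Tra2a ended with quantile normalization, with equal medians and with the hybridization controls.

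On the scale of the deposited arrays, no hnRNP, no SF3A, SF3B or U2AF protein and no Sm or snRNP protein was called after 20 pulses by limma. At an unadjusted p under 0.05 these classes had 9 higher and 13 lower of 54 probe sets (16.7% and 24.1%), 4 and 6 of 32 (12.5% and 18.8%), and 1 and 5 of 15 (6.67% and 33.3%). With scaling to the hybridization controls 11, 4 and 1 probe sets of these classes were called higher and 0 lower. The median over all tested probe sets was 0.12 under that scaling. Quantile normalization gave 1 hnRNP probe set higher, and equal medians 1 of the SF3A, SF3B and U2AF proteins. Srsf2 1427816_at, the large decrease of Ca-free medium, read 554.4, 466, 431.2 and 449 after 20 pulses. All of these lay below the 4 controls, and the change did not pass (log2 change -0.61 ± 0.15, adjusted p = 0.0652). Srrm2 in its brightest probe set likewise lay above all controls and did not pass (0.25, adjusted p = 0.054).

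Set directly against 20 pulses, Ca-free medium gave 59 member probe sets called higher (32.1%) and 27 lower (14.7%), beside 9.22% and 23.4% of all tested probe sets, with medians of 0.088 and -0.17. By their brightest probe sets 26 of 67 genes were higher and 6 lower, beside 11.2% and 21.0% of all genes. The hnRNPs had 22 of 54 higher and 4 lower, the Sm and snRNP proteins 9 of 15 and 1, and the SR proteins 13 of 48 and 11. The median mean signal was 3293, 4577 and 1534 over these classes in turn, and 322.5 over all tested probe sets. Calls followed the signal here too. From 3000 upwards 61.1% of 72 members were higher and 4.17% lower, beside 51.8% and 2.34% of all tested probe sets. The balance of calls here too rests on the scale: quantile normalization gave 14 higher and 14 lower over the members, equal medians 118 and 3, and the hybridization controls 2 and 112. The median over all tested probe sets was -0.0125, 0.18 and -0.50 under these 3 scalings in turn, and over the members 0.0070, 0.46 and -0.28. Under all 4 scalings 2 member probe sets, of Sf3b6 and Snrpg, were higher (1.09%, beside 0.327% of all tested probe sets). Lower under all 4 were 3, of Sf3a1, Srrm1 and Srsf2 (1.63%, beside 2.3%). Sf3b6 1436681_x_at read 5671, 6108, 5243 and 5686 in Ca-free medium, against 2442, 3286, 3651 and 3207 after 20 pulses (log2 change 0.86 ± 0.11, adjusted p = 0.000459). Snrpg 1448357_at, an Sm ring protein, read 5029, 5153, 4646 and 5582, against 2888, 2939, 3805 and 3690 (log2 change 0.62 ± 0.10, adjusted p = 0.00124). Neither pair of groups overlapped, which the rule for named members required. Snrpb 1437193_s_at (0.52), Sf3b5 1451185_at (0.51) and the tri-snRNP protein Prpf3 (0.50) were also higher, and these 3 calls ended with scaling to the hybridization controls.

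The lower members included Srrm1 1450045_at, which read 429.6, 379.9, 377 and 486.2 in Ca-free medium, against 902.1, 947.5, 700.4 and 723.7 after 20 pulses (log2 change -0.91 ± 0.12, adjusted p = 0.000666). Srsf2 1427816_at (-0.82, adjusted p = 0.0024) and Sf3a1 1446687_at (-0.76, adjusted p = 0.00114) followed. All 3 separated the groups without overlap, as the rule for named members required, and held with every single array left out. The SR-like proteins Srsf11 (1439095_at, -0.73) and Tra2a (1442886_at, -0.64) were lower too, and both calls ended with equal medians and with quantile normalization. Sart3 1417548_at did not differ past the threshold between Ca-free medium and 20 pulses (log2 change 0.25 ± 0.26, adjusted p = 0.472), and Rbm5 1456262_at was lower in Ca-free medium (-0.61, adjusted p = 0.0211). Calls in both directions within a gene were seen in 7 of 48 genes here (14.6%), beside 4.63% of 5700, among them Hnrnpa2b1, Srsf2 and Srsf3.

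The other genes of the pathway were read from a list by role. Of 96 probe sets of other spliceosome genes, 30 were higher and 10 lower in Ca-free medium against control (median log2 change 0.090), and of 97 probe sets of splicing regulators and SR kinases, 20 were higher and 20 lower (median 0.030), beside 10.6% and 29.7% of all tested probe sets. With quantile normalization the counts were 22 and 5 for the first list and 23 and 9 for the second, with equal medians 67 and 2 and 55 and 2, and with the hybridization controls 8 and 26 and 8 and 29. By the rule for named genes these were Dhx38, an RNA helicase (0.93), the SR kinase Srpk2 (0.89) and the helicase Ddx46 (0.76) among increases, and Isy1, a catalytic-step factor (-0.85), Luc7l, a partner of U1 snRNP (-0.80), and Ptbp1, the polypyrimidine tract binding protein (-0.72), among decreases. Ddx46, which works with the SF3B complex, read 849.4, 899.3, 956.1 and 932.1 in 1457744_at in Ca-free medium, against 556.3, 456.1, 433.2 and 675.7 in control (adjusted p = 0.000634). Ptbp1 read 1583, 1390, 1519 and 1549, against 2707, 2955, 2121 and 2298 (adjusted p = 0.000684). Neither gene's groups overlapped, and both calls held under all 4 scalings and left-out arrays, as did those of Isy1 and Luc7l. Luc7l 1447406_at, however, read 111.7 on Ca-free array 3 and 81.59 to 86.25 on the other Ca-free arrays. Its Ca-free mean thus lay below the minimum signal, and its log2 change rests on a group below that minimum. The call of Dhx38 ended without Ca-free 2, Ca-free 4, control 1 or control 2, and that of Srpk2 against controls 3 and 4 only. After 20 pulses no other spliceosome probe set was called by limma (9 higher and 7 lower at an unadjusted p under 0.05, or 9.38% and 7.29%, beside 8.15% and 7.64% of all). With scaling to the hybridization controls 10 of the 96 were called higher and 0 lower. Of the regulators 6 of 97 probe sets were higher, beside 1.10% of all, and under quantile normalization, equal medians and the hybridization controls 7, 6 and 28 were. The 6 include 3 of Rbm39, an SR-related protein. Rbm39 1446147_at read 406.9, 390.6, 484.5 and 473.7 after 20 pulses, against 265.1, 271, 250.7 and 251.4 in control (log2 change 0.69, adjusted p = 0.00632), and this call held with every single array left out.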

How the data were processed

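The deposited table holds 1 linear intensity per probe set and array, which the authors made with MAS5 per the submitters' processing notes, with no version given there. Total RNA was labelled as biotinylated cRNA by a small-sample method, per the labels' protocols. All deposited arrays share a trimmed mean of 150.001, so each was rescaled by 3.33 to 500, 32 was added and log2 was taken. Fold changes are on that scale and understate changes of dim probe sets. Array controls (64) were left out, and 27808 of 45037 probe sets, those averaging 100 or more over the 12 arrays, went into the test.

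All 12 arrays entered 1 fit in limma 3.58.1 (R 4.3.3; lmFit, eBayes with an intensity trend), with Benjamini-Hochberg adjustment over all tested probe sets and calls at an adjusted p under 0.05. The fit was tested on simulated data. Probe sets were named from the platform annotation: 34945 had 1 gene, 932 several and 9160 none, and all 203 member probe sets matched RefSeq by gene ID.

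Members and lists were chosen with earlier results of these data known. Named members were the 8 largest changes each way (5 between Ca-free medium and 20 pulses) that passed, did not overlap and reached a mean of 200 in the higher group, the brightest probe set of a set of well-known members, genes with calls in both directions, and the 3 largest changes each way of other spliceosome genes and regulators. Snrpa and Snrpd1, which that rule also lists, were not analysed here. The largest changes, those of the other genes included, had to pass without overlap, so the separation of their groups follows from the choice. Same-numbered arrays did not deviate together, so the numbers were not treated as pairs. Alternatives covered the scaling, the added value, the minimum signal, the threshold, the fit, array weights, a replicate block and left-out arrays.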

Additional observations from a re-analysis of the deposited data

Results flagged for a closer look

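In 13 of 237 sets of 4 arrays that were examined, 1 array lay far from the other 3, with a gap past Dixon's critical value. Chance alone gives about 1 in 20 such sets, and the cause of each was not tested. Among the SR proteins, Srsf3 1434512_x_at read 8158 on Ca-free array 3 (8655 to 8678 on the others), Srsf3 1438215_at read 280.9 on 20-pulse array 2 (314.2 to 317.3), and Srsf2 1452439_s_at read 488.9 on control array 1 (716.6 to 728.8). Srrm2 1438688_at read 6334 on Ca-free array 3 (6826 to 6921), and Srrm1 1447447_s_at read 3373 on 20-pulse array 3 (4230 to 4370).

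Prpf8 1422453_at read 3656 on 20-pulse array 4, above 2718 to 2812 on the others. Hnrnpa2b1 1434047_x_at read 8926 on 20-pulse array 2 (9515 to 9623), and Sart1 1448658_at read 1416 on Ca-free array 1 (1024 to 1057). In Rbm5, 1438069_a_at read 129.2 on Ca-free array 1 (136.4 to 137.1), 1452186_at read 2493 on 20-pulse array 1 (2352 to 2373), and 1456262_at read 347.7 on 20-pulse array 1 (438.0 to 449.4). Outside the members, Luc7l 1447406_at read 111.7 on Ca-free array 3 (81.59 to 86.25) and Isy1 1458256_at read 114.8 on Ca-free array 3 (158.4 to 168.3).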

How the results depend on the processing

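Counts of calls moved with the scaling and, after 20 pulses, with most other settings. In Ca-free medium against control, 55 member probe sets were higher, and 35 with quantile normalization, 132 with equal medians and 19 with the hybridization controls. Lower were 24, against 2 with equal medians, 64 with the hybridization controls, 13 at an adjusted p under 0.01, 14 at a minimum signal of 300 and 15 against controls 3 and 4 only. After 20 pulses 7 were higher, and 1 at 0.01, 11 with array weights, 3 against controls 1 and 2, 17 against controls 3 and 4, 38 with the hybridization controls, 3 without a filter, 1 without the trend, 4 with the 8 arrays alone, and 1 to 7 with single arrays left out. The 1 lower call became 0 at 0.01, with the hybridization controls, with equal medians, without a filter and without the trend, 2 with 100 added, against controls 3 and 4, at a minimum of 300, with the 8 arrays and with quantile normalization, 3 with array weights, and 0 to 1 with single arrays left out. With the mean over probe sets, 2 genes were higher in place of 0 and 0 lower in place of 1. Between Ca-free medium and 20 pulses, 59 were higher, and 31 at 0.01, 14 with quantile normalization, 118 with equal medians and 2 with the hybridization controls. Lower were 27, and 7 at 0.01, 17 with Ca-free arrays 2 and 3 only, 14 with quantile normalization, 3 with equal medians and 112 with the hybridization controls. Beyond the scaling itself, the cause was not tested.

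Same-numbered arrays correlated at a mean r of 0.0156 over 12 pairs (-0.058 to 0.101), so the numbers do not show pairing. With a replicate block, 55 members were higher and 27 lower in Ca-free medium against control, 2 and 0 after 20 pulses, and 58 and 23 between Ca-free medium and 20 pulses.

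Among named probe sets, 38 changes turned sign where they passed under either setting. In Ca-free medium against control with the hybridization controls, they were -0.14 for Hnrnpa2b1 1433829_a_at, -0.17 for Hnrnpk 1460547_a_at, -0.081 for Prpf19, -0.19 for Sf3b1 1440818_s_at and -0.18 for Tra2b, and with equal medians 0.20 for Rbm5 1452186_at, 0.029 for Sart3 1417547_at, 0.31 for Sf3a1, 0.24 for Srrm1 and 0.25 for Srsf2 1427504_s_at. In Ca-free medium against 20 pulses with the hybridization controls, they were -0.11, -0.19 and -0.21 for 3 probe sets of Hnrnpa2b1, -0.084, -0.21 and -0.16 for 3 of Hnrnpk, -0.22 for Hnrnpu, -0.17 for Prpf19, -0.36 for Rbm5, -0.27 for Sf3b1, -0.091 for Sf3b5, -0.28 for Srrm2, -0.22 for Srsf1, -0.10 for Srsf2, -0.19, -0.0013 and -0.18 for 3 of Srsf3, -0.11 for Srsf5, -0.21 for Tra2b and -0.31 for U2af1. With equal medians they were 0.31 for Sf3a1, 0.11 for Sf3b2, 0.12 for Srrm1 and 0.32 for Srsf2, and with quantile normalization -0.019 and -0.033 for Hnrnpa2b1, -0.0018 for Prpf19 and -0.0040 for Tra2b. Another 37 turned sign under another scaling but passed under neither, reaching at most 0.27 in size there.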
